A study of Mus musculus with 6 samples.

Results

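The microRNAs (miRNAs) followed here in mouse prefrontal cortex are 9 that are best known from liver, gut and pancreas: miR-122, miR-192, miR-194, miR-215, miR-216a, miR-216b, miR-217, miR-375 and miR-802. They were chosen with earlier results of these data known, and their assays were picked by name, ignoring species prefix, arm mark and copy number. Of the 750 miRNA assays of the panel, 10 carry these names (9 of the 377 assays of pool A and 1 of the 373 of pool B, the letter that ends the assay identifier). The tissue was whole prefrontal cortex of 6 male mice aged 5 months that received no drug, with 1 sample per mouse. The 3 BTBR mice are labelled BTBR T+ Itpr3tf/J, an inbred strain with autism-like social behaviour, and the 3 C57BL/6J mice are labelled wild type and served as controls. The labels also name C57BL/6J as the strain background of the BTBR mice, which are a separate inbred strain. The readout was the cycle threshold of a TaqMan OpenArray PCR, the PCR cycle at which fluorescence passes a fixed level. A later threshold means less RNA, and 1 cycle was taken as a 2-fold difference. A value of 40 stands for undetermined, and every other value was counted as detected. Each assay was run once per mouse, so a value has no technical replicate, and because assays amplify with unequal efficiency, thresholds of different assays were not compared as levels.

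A miRNA is cut from a hairpin transcript and guides repression of mRNAs that pair with its seed, bases 2 to 8 from the 5′ end. miR-122 is the dominant miRNA of hepatocytes, miR-192, miR-194 and miR-215 are typical of intestinal epithelium, kidney and liver, miR-216a, miR-216b and miR-217 of pancreatic acinar cells, miR-375 of pancreatic islets and other endocrine cells, and miR-802 of liver and other metabolic tissues. None of them is known as a marker of cortical neurons or glia, so their thresholds also show what the panel reads for miRNAs expected to be scarce.

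Mature sequences are shown because they set which members can act on the same targets and which could be read by a near-identical assay. Sequences of 7 of the 9 miRNAs, from RefSeq (build GRCm38.p6, mouse), are given, each with its 5p arm, the one that older names such as those of the assays left unmarked. Capitals mark the seed.

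miR-192: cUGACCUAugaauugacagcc
miR-215: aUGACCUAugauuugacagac
miR-194: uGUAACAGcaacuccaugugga
miR-216a: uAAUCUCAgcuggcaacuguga
miR-216b: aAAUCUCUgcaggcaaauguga
miR-217: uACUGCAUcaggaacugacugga
miR-802: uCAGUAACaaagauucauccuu

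The 7 sequences hold 6 distinct seeds. miR-192 and miR-215 share theirs and are identical at 18 of 21 positions, while miR-216a and miR-216b differ at 1 seed base and are identical at 18 of 22 positions. The genes lie in groups. Mature miR-192 (chr19:6264857-6264877, plus strand) and 1 copy of miR-194 (chr19:6264658-6264679, plus strand) come from hairpins with 115 bases between them, which lie in no other annotated gene. The other copy of miR-194 (chr1:185313325-185313346, plus strand) and miR-215 (chr1:185313610-185313630, plus strand) come from hairpins 195 bases apart inside the protein-coding gene Iars2. miR-216b (chr11:28746204-28746225, plus strand), in the long non-coding RNA gene Mir217hg, is followed by miR-216a (chr11:28757018-28757039, plus strand) and miR-217 (chr11:28763761-28763783, plus strand), both in the long non-coding RNA gene Gm40818. miR-802 (chr16:93369737-93369758, plus strand) lies in no other annotated gene.

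Of the 10 assays, 2 (hsa-miR-192 and hsa-miR-375) were read in all 6 mice, at 19.84 to 20.58 and 20.32 to 21.61 cycles. A further 3, mmu-miR-215, mmu-miR-802 and hsa-miR-216a, were undetermined in all 6. The other 5 were read in some mice only, and 7 of the 24 detected values of the 10 assays stood at 28 cycles or later, 4 of them those of hsa-miR-122. Among the 740 other assays of the panel, 239 (32.3%) were read in all mice and 282 (38.1%) in none.

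**Figure D1:**
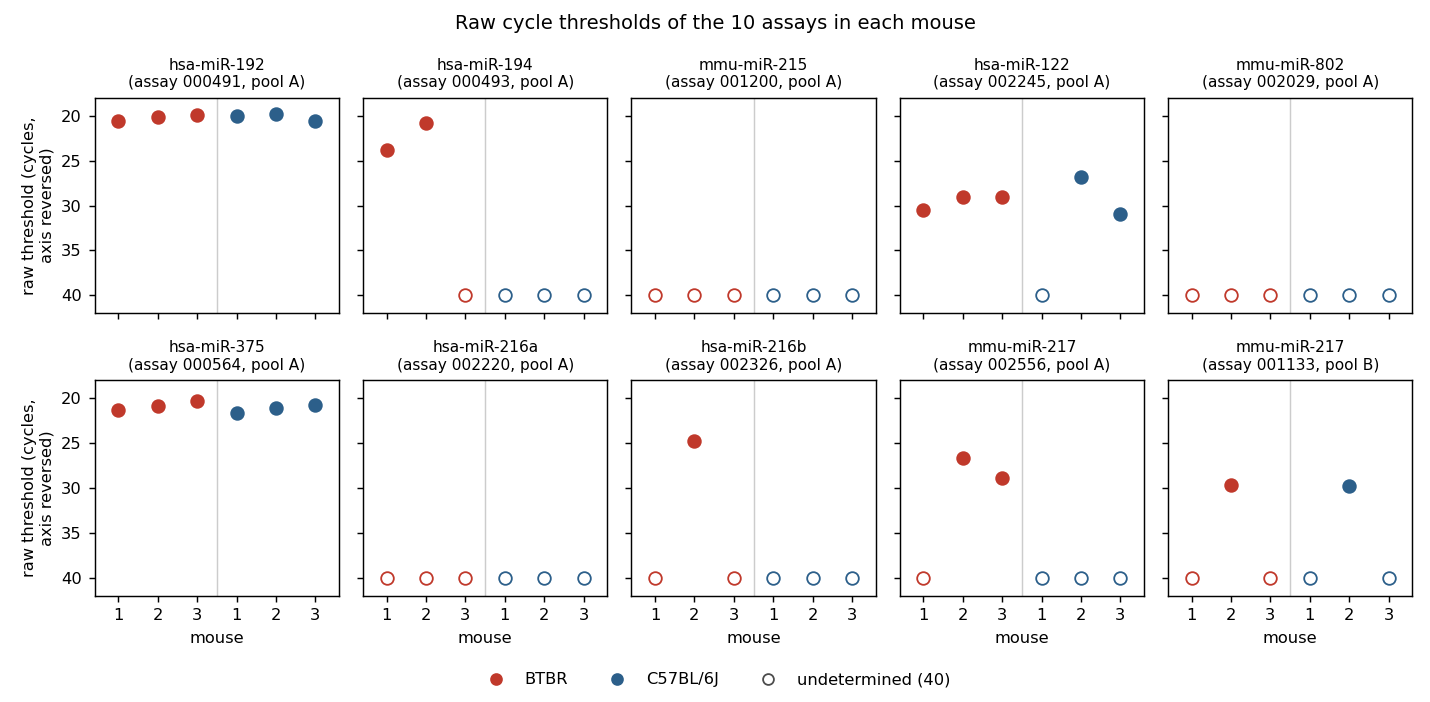
Raw cycle threshold (vertical axis, cycles, reversed so that more RNA is higher) of each assay in the 3 BTBR mice (left of the line) and the 3 C57BL/6J mice (right). Filled points are readings and open points at 40 are undetermined; miR-192 and miR-375 lie near 20 to 22 cycles in every mouse, and miR-215, miR-802 and miR-216a are open in every mouse.

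Of the intestinal and renal miRNAs, hsa-miR-192 (assay 000491), induced by p53 and abundant in epithelium, had raw thresholds of 20.58, 20.13 and 19.93 cycles in BTBR mice, against 19.96, 19.84 and 20.52 cycles in C57BL/6J mice. The strains overlapped fully, with means of 20.21 ± 0.330 cycles in BTBR and 20.11 ± 0.365 in C57BL/6J (SD, n = 3 each). Its raw range over the 6 mice, 0.736 cycles, was among the narrow ones: 18 of 237 assays had a smaller range, and the median range was 1.81 cycles. Those 237 are the assays with a threshold of at least 10 and under 40 cycles in every mouse. On raw thresholds the log2 change of miR-192, BTBR minus C57BL/6J, was -0.11 (95% interval -0.90 to 0.69, limma adjusted p = 0.867), which leaves room for a rise of up to 0.69 or a fall by up to 0.90 on the log2 scale.

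The assay hsa-miR-194 (000493), with 1 copy of its hairpin beside that of miR-192, behaved differently. It was read at 23.80 and 20.82 cycles in BTBR mice 1 and 2 and was undetermined in BTBR mouse 3 and in the 3 C57BL/6J mice. The readings lay 2.98 cycles apart within BTBR, and they are not late ones. Thus the miR-192 assay was read in 6 and the miR-194 assay in 2 of the 6 mice. The copies of miR-194 on chromosomes 1 and 19 give the same mature sequence, so the assay cannot tell them apart. The same pattern, BTBR mice 1 and 2 alone, was shown by 33 of the 740 other assays (4.46%), 27 of them in pool A. One of them is hsa-miR-9 (000583), from one of the most abundant miRNAs of brain, at 16.76 and 13.90 cycles in these 2 BTBR mice, while hsa-miR-9# of the same hairpin was read at 13.49 to 14.09 cycles in every mouse. The other assay with this pattern from the brain list used below, HSA-MIR-338-5P, was read late, at 38.9 and 33.6 cycles. Why these assays were undetermined in the same 4 mice as that of miR-194 was not tested. The assay mmu-miR-215 (001200), with the seed of miR-192 and 18 of 21 identical positions, was undetermined throughout, while the miR-192 assay read near 20 cycles. Of the 740 other assays 38.1% were also undetermined in every mouse. Whether the miR-215 assay works in these samples, or the miR-192 assay also reads miR-215, was not tested.

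For the hepatocyte miRNA miR-122, the assay hsa-miR-122 (002245) was read at 30.54, 29.05 and 29.01 cycles in BTBR mice, against undetermined, 26.77 and 30.92 cycles in C57BL/6J mice. Both the earliest and the latest reading came from C57BL/6J mice, so the strains overlapped. The assay is not in the authors' normalized table. On raw thresholds centred on each mouse's mean over the 237 assays, its log2 change was -0.90 with a standard error of 1.43 (95% interval -4.59 to 2.79, limma adjusted p = 0.682 over 270 assays, with 3 BTBR and 2 C57BL/6J values). Neither a large rise nor a large fall lies outside that interval. The assay mmu-miR-802 (002029), the other hepatic one, was undetermined in every mouse.

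Of the pancreatic miRNAs, hsa-miR-375 (000564), which restrains insulin secretion in islets, had raw thresholds of 21.26, 20.83 and 20.32 cycles in BTBR mice, against 21.61, 21.08 and 20.72 cycles in C57BL/6J mice. The strains overlapped, with means of 20.80 ± 0.470 cycles in BTBR and 21.14 ± 0.447 in C57BL/6J (SD, n = 3 each). The log2 change on raw thresholds was 0.34 (95% interval -0.60 to 1.27, limma adjusted p = 0.601). The difference between the thresholds of miR-375 and miR-192 within a mouse does not depend on any scaling of mice. It was 0.680, 0.699 and 0.386 cycles in BTBR and 1.65, 1.24 and 0.2 cycles in C57BL/6J. This difference averaged 0.588 ± 0.175 cycles in BTBR and 1.03 ± 0.749 cycles in C57BL/6J (SD, n = 3 each), with the widest and the narrowest difference both in C57BL/6J (exact permutation test, two-sided, p = 0.40, where 3 mice against 3 cannot go below 0.1).

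The acinar miRNAs were read in few mice or in none. The assay hsa-miR-216a (002220) gave no reading. The assay hsa-miR-216b (002326) was read once, at 24.80 cycles in BTBR mouse 2. For miR-217 the panel holds a pair of assays of the same name. That in pool A (002556) was read at 26.60 cycles in BTBR mouse 2 and 28.92 cycles in BTBR mouse 3, and that in pool B (001133) at 29.67 cycles in BTBR mouse 2 and 29.74 cycles in C57BL/6J mouse 2. The pair was read together in 1 mouse and undetermined together in 3, so that the calls matched in 4 of 6 mice. The panel has 8 other pairs of assays with one name, and their calls matched in 22 of 48 mouse by assay cells (45.8%). Across the 750 assays, the 49 that were read in a single mouse had a median threshold of 28.33 cycles (quartiles 22.88 and 30.81), with 51.0% at 28 cycles or later. The 241 read in all mice had a median of 22.11 cycles, with 7.33% that late. The single reading of miR-216b lies between those quartiles. Of the 49 single readings, 20 (40.8%) came from BTBR mouse 2, which also gave the most readings overall.

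By mouse, 4, 7 and 4 of the 10 assays were read in BTBR and 2, 4 and 3 in C57BL/6J, a mean of 5.00 ± 1.73 against 3.00 ± 1.00 (SD, n = 3 each). These counts overlap at 4. In 4 assays, miR-194, miR-122, miR-216b and the pool A assay of miR-217, more BTBR than C57BL/6J mice gave a reading, which was the case for 20.8% of all 750 assays. In 0 assays did fewer BTBR mice give one, against 6.67% of all assays. Of the 10 assays, 3 (miR-194, miR-216b and the pool A assay of miR-217) were read in BTBR mice only, against 15.5% of all assays. In the whole panel 156 assays were read in more BTBR mice, and 116 of these in BTBR mice only. None of the 10 was read in all 3 BTBR and no C57BL/6J mice, against 4% of all assays, or the reverse, against 0.4%. The direction was that of the panel. The 740 other assays were read at 48.1%, 54.3% and 47.0% in BTBR and at 41.1%, 40.3% and 39.6% in C57BL/6J. The strains lay apart in pool A, to which 9 of the 10 assays belong, and overlapped in pool B. In pool A 245, 245 and 214 of 377 assays were read in BTBR and 176, 180 and 177 in C57BL/6J. In pool B 115, 164 and 138 of 373 were read in BTBR and 130, 122 and 119 in C57BL/6J. There BTBR mice 2 and 3 gave more readings than every C57BL/6J mouse, and BTBR mouse 1 fewer. In whole tissue, fewer cells of a type and less RNA per cell cannot be told apart.

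The control spots differed between the strains too. The panel carries 16 spots each of 5 endogenous small RNAs (U6 rRNA, snoRNA135, snoRNA202, U87 and Y1), and of these 80 spots 78, 80 and 79 were read in BTBR and 63, 61 and 59 in C57BL/6J. Between 21.25% and 26.25% of the spots of these RNAs were thus undetermined in each C57BL/6J mouse, although the spots that were read had early medians. The U6 rRNA spots that were read had medians of 14.14, 13.61 and 14.26 cycles in BTBR and 14.25, 14.50 and 14.24 cycles in C57BL/6J, with single late spots in both strains, up to 30.63 cycles in BTBR and 31.81 cycles in C57BL/6J. The plant control ath-miR159a, absent from mice, was undetermined in all 96 spot by mouse cells, so the panel gave no false reading there. The part of lost spots in the detection of the 10 assays was not tested.

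**Figure D2:**
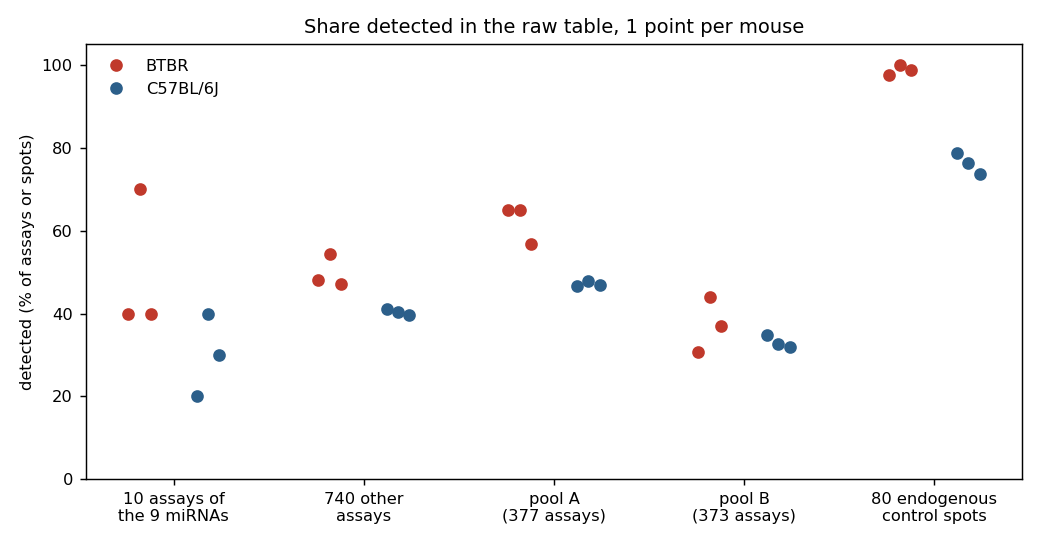
Share of assays or control spots read in the raw table (vertical axis, %), with 1 point per mouse and BTBR left of C57BL/6J in each class. The strains overlap for the 10 assays and for pool B, and lie apart for pool A and for the endogenous control spots, where C57BL/6J mice read 73.75% to 78.75%.

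As a check of the tissue, 12, 13 and 11 of 14 assays of a brain list (miR-124, miR-9, miR-128, miR-138, miR-132, miR-219 and miR-338) were read in BTBR and 11, 12 and 11 in C57BL/6J. The members were uneven. The assay hsa-miR-124# was read in every C57BL/6J mouse and in no BTBR mouse, and mmu-miR-124a ranged from 19.8 to 31.4 cycles. For mmu-miR-138#, values of 7.8 and 6.4 cycles in C57BL/6J mice 2 and 3 count as read. Among markers of other sources, those of blood and choroid plexus were read more often in BTBR, as the panel was. Of 7 assays for red blood cells and plasma, 4, 5 and 5 were read in BTBR and 3, 3 and 2 in C57BL/6J. In that list hsa-miR-486 was read in BTBR alone and HSA-MIR-144 in no mouse. The erythroid mmu-miR-451 was read at 20.72, 19.98 and 19.74 cycles in BTBR, against 21.10, 21.18 and 21.43 cycles in C57BL/6J. On the authors' normalized thresholds, however, its log2 change was -0.21 (limma adjusted p = 0.640). The strains overlapped for hsa-miR-16, at 14.75, 14.40 and 13.99 cycles in BTBR and 14.50, 14.68 and 14.58 cycles in C57BL/6J. Of 18 choroid plexus assays, 8, 13 and 8 were read in BTBR and 4, 6 and 6 in C57BL/6J. Single members went the other way. The assay hsa-miR-141 was read in BTBR mouse 2 and every C57BL/6J mouse, and hsa-miR-200b# in BTBR mouse 2 and C57BL/6J mice 2 and 3. The assay hsa-miR-204 was read in every mouse, with overlapping strains. Of 9 assays for muscle, another tissue outside brain, 5 were read in each BTBR mouse and 6, 4 and 4 in C57BL/6J. The part of blood or choroid plexus RNA in the readings of the 10 assays was not tested.

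The question of the study, which miRNAs differ between the strains, can be put to miR-192 and miR-375 alone on the authors' quantile-normalized thresholds, since these are the members among the 306 assays of that table. There miR-192 stood at 20.68, 21.38 and 20.68 cycles in BTBR, against 19.87, 19.48 and 19.87 cycles in C57BL/6J. The strains did not overlap, and miR-192 was 2.25-fold lower in BTBR. Its log2 change was -1.17 ± 0.33 (SE), with limma's adjusted p = 0.0398 over 231 assays. miR-375 stood at 21.70, 22.39 and 20.84 cycles in BTBR, against 21.03, 20.33 and 20.03 cycles in C57BL/6J. The ranges overlap, since BTBR mouse 3 lay below C57BL/6J mouse 1, and its log2 change of -1.18 ± 0.51 (SE) did not pass (95% interval -2.43 to 0.06, limma's adjusted p = 0.113). So 1 of the 2 fell and 0 rose, against 35.5% of the 231 tested assays that fell and 1.3% that rose. The call of miR-192 did not hold when any 1 mouse other than BTBR mouse 3 was left out (limma adjusted p = 0.0698 to 0.161), and without BTBR mouse 3 both assays passed (0.0388 for miR-192 and 0.0386 for miR-375). Of all assays tested, 0% to 29.1% passed in the former fits and 47.6% in the latter, against 36.8% with every mouse. The authors' deposited table gives ratios of BTBR to C57BL/6J of 0.444 for miR-192 and 0.441 for miR-375, with adjusted p of 0.0842 and 0.217.

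Both changes were close to the median change of the tested assays, -1.13. They lay 0.04 (miR-192) and 0.05 (miR-375) below it, with 112 and 111 of the 231 assays more negative. The size of both depended on the scale. On raw thresholds of the same cells, not normalized, the panel median was -0.01 and the changes were -0.11 for miR-192 and 0.34 for miR-375. Centred on each mouse's mean over the 189 assays with 6 normalized values (here called the global mean), the panel median was -0.18. The changes there were -0.29 ± 0.39 (SE) for miR-192 and 0.16 ± 0.33 (SE) for miR-375, with adjusted p of 0.626 and 0.769 in limma. Centred on the wider set of 237 assays they were -0.50 for miR-192 and -0.06 for miR-375, so that the sign for miR-375 was not settled. On the mean of the U6 rRNA spots that were read, the panel median was -1.14, as low as on the authors' scale, with -1.30 ± 0.88 (SE) for miR-192 and -0.85 ± 0.88 (SE) for miR-375 (adjusted p of 0.302 and 0.498 in limma). That mean takes in the late spots, up to 30.63 cycles in BTBR and 31.81 cycles in C57BL/6J. The medians of these spots were 14.14, 13.61 and 14.26 cycles in BTBR and 14.25, 14.50 and 14.24 cycles in C57BL/6J. How far the late spots set this scale was not tested. On the global mean 0 of the 231 assays fell, 0.433% rose and 69 had an unadjusted p under 0.05 in limma.

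**Figure D3:**
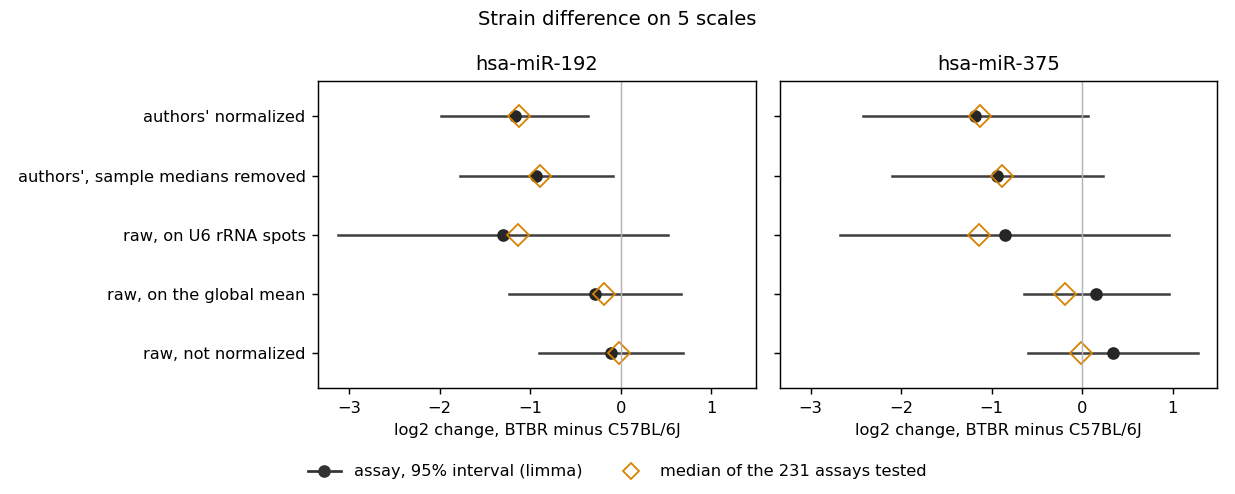
Log2 change of miR-192 (left) and miR-375 (right), BTBR minus C57BL/6J, on 5 scales (rows), with limma's 95% interval as a line and the median change of the 231 tested assays as an open diamond. The changes near -1.2 on the authors' scale lie near 0 on raw thresholds that are not normalized or centred on the global mean. They do not on those centred on the mean of the U6 rRNA spots, which takes in single late spots. The panel median moves with the changes.

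Quantile normalization assigns a value by an assay's place in its sample. Counted among the 340 assays with at least 3 readings, readings under 10 cycles being treated as undetermined, that place gave the deposited values of miR-192 and miR-375 to within 3.33e-09 cycles. The number of these assays with an earlier threshold than miR-192 was 107, 124 and 107 in BTBR and 93, 85 and 93 in C57BL/6J, with no overlap. Counted among the 237 of them read in every mouse it was 78, 89 and 76 in BTBR and 78, 77 and 87 in C57BL/6J, with overlap. As a share of the 340 assays that the mouse read at all, it was 34.5%, 37.8% and 33.4% in BTBR and 32.1%, 29.5% and 34.1% in C57BL/6J, which also overlap. For miR-375 the numbers were 130, 148 and 110 in BTBR and 116, 101 and 96 in C57BL/6J among the 340, and 96, 108 and 79 in BTBR and 98, 91 and 90 in C57BL/6J among the 237. How far the assays read in some mice only account for the normalized difference was not tested.

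**Figure D4:**
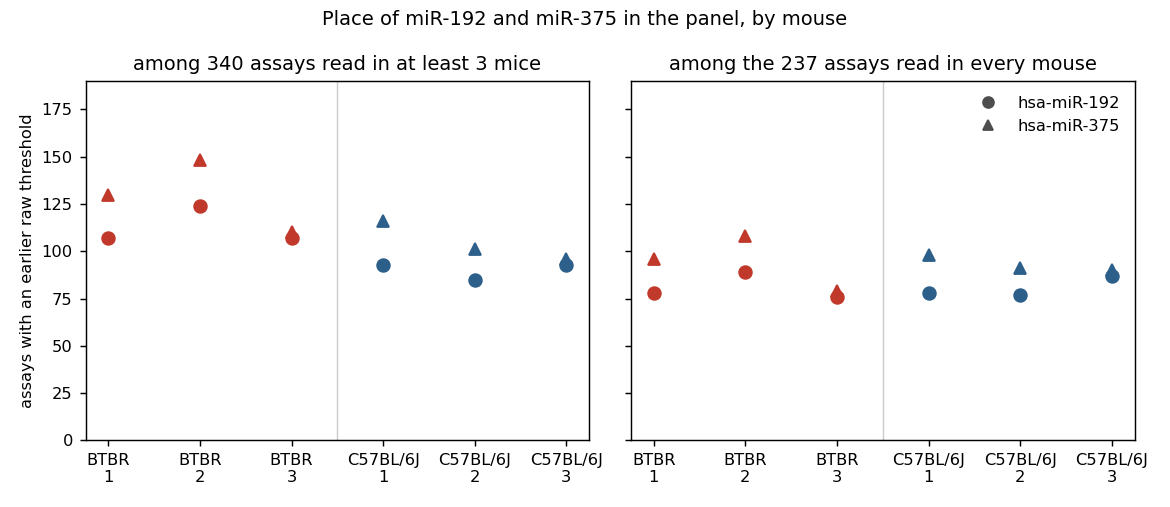
Number of assays with an earlier raw threshold than miR-192 (circles) or miR-375 (triangles) in each mouse, BTBR left and C57BL/6J right, among the 340 assays read in at least 3 mice (left panel) and the 237 read in every mouse (right panel). The miR-192 circles of the strains lie apart in the left panel and overlap in the right one.

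After centring on each mouse's mean over the 237 assays and on each assay's own mean, miR-192 and miR-375 differed by a root mean square of 0.496 cycles over the 6 mice, less than the median distance of either to the other assays. The assays most like miR-192 were mmu-miR-547 (0.157 cycles), hsa-miR-132 (0.160 cycles), an activity-regulated miRNA of neurons, and hsa-let-7g (0.186 cycles), where the median over 236 other assays was 0.661 cycles. Those most like miR-375 were mmu-miR-488 (0.214 cycles), hsa-miR-218 (0.220 cycles), a miRNA of neurons, and hsa-miR-219-2-3p (0.264 cycles), from an oligodendrocyte miRNA, against a median of 0.688 cycles. These distances rest on 6 values each and describe these mice alone.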

How the data were processed

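Prefrontal cortex RNA with integrity numbers of 9 was column-purified, and 100 ng per mouse was reverse transcribed, pre-amplified and run on the TaqMan OpenArray rodent panel, per the labels' protocols. The deposited raw table holds cycle thresholds. The deposited normalized table holds quantile-normalized thresholds, per the file headers. The sources used here do not give instrument settings, the authors' further normalization steps or the samples that shared an array. The authors' deposited fold table gives, per the file headers, a ratio of BTBR to C57BL/6J, a threshold difference (a log2 value with the sign turned), the statistic of the authors' test (a score), its p-value and an adjusted one.

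From these, minus the normalized threshold was taken as a log2 level, with 40 as missing. The 231 assays with at least 2 values in each strain were fitted in limma 3.58.1 (R 4.3.3; lmFit, then eBayes) on strain alone, and p was adjusted over all of them by Benjamini-Hochberg, at a threshold of 0.05. The same fit was run on raw thresholds under the alternatives given at the end, and tested on simulated data. Thresholds carry no read depth, and 1 reaction per assay and 3 mice a strain set the precision. Every assay of the 9 miRNAs is named, and the assays most like miR-192 and miR-375 are the 3 with the smallest root mean square difference. Members and lists were chosen with earlier results of these data known. miR-124a and miR-128a were matched to miR-124 and miR-128.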

Additional observations from a re-analysis of the deposited data

How the results depend on the processing

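The count of members past the threshold on the authors' values, 1 (miR-192), was also 1 with at least 3 values required in each strain. It was 0 on raw thresholds (not normalized, on the global mean, on the U6 rRNA spots, or with late readings), with sample medians removed, with 40 kept as a value, and with 1 value per strain required. Without 1 mouse it ranged from 0 to 2. With the replicate number as a block the count of members was 0, and miR-192 had a log2 change of -1.17 (limma adjusted p = 0.0894), while 32 assays of the panel passed against 85. Same-numbered mice deviated together with Pearson r of 0.08, 0.42 and -0.00 over 189 assays, so the numbers are not treated as pairs. The change of miR-192 was negative under all 15 alternatives run, from -1.30 to -0.11 (limma adjusted p = 0.0338 to 0.867). It was -0.29 on the global mean over 189 assays, -0.50 with late readings kept and the mean taken over 237 assays, where both choices differ, and -0.93 with sample medians removed. On the U6 rRNA spots it was -1.30, with 40 kept or with 1 value per strain it was -1.17, and without 1 mouse it ranged from -1.29 to -0.94. The change of miR-375 was positive on raw thresholds, 0.34 not normalized and 0.16 on the global mean, and negative under the other 13 alternatives, at -0.06 with late readings kept. Without BTBR mouse 3 it was -1.58 and passed. The cause of these moves was not tested. The change of miR-122 stayed negative and did not pass in 5 alternatives added after seeing the data (-1.29 to -0.46). Leaving out C57BL/6J mouse 1 is among these and could not move it from -0.90, since the assay was undetermined in that mouse. Without C57BL/6J mouse 2 or 3 it was not fitted, since the filter asks for 2 values per strain and 1 remained. The mean number of the 10 assays read was higher in BTBR by 2, by 1 with readings of 28 cycles or later set aside, and by 1 to 2.5 without 1 mouse. In the authors' normalized table the difference was 0, since 2 members are kept there and both have 6 values.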
